A study of Homo sapiens with 16 samples.

Results

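The replication-dependent histone genes encode the bulk histones that package newly copied DNA, and 64 of the 26410 genes in the expression tables of this study belong to them. They were chosen by name alone: every protein-coding gene called H1-1 to H1-6, or H2AC, H2BC, H3C or H4C with a number, that had a row and at least 1 read in any library. The 64 genes are 5 H1, 15 H2A, 17 H2B, 13 H3 and 14 H4 genes. A further 5 symbols that fit the rule (H1-1, H2AC1, H2AC17, H2BC1 and H4C7) were not analysed here. On the human genome build GRCh38, 30 of the genes lie in the main cluster of chromosome 6, 20 in the distal cluster of the same chromosome, 11 at 1q21, 2 at 1q42 and 1 on chromosome 12.

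RNA came from SH-SY5Y, a neuroblastoma cell line, in 16 libraries that form 4 groups of 4. TRPM2 KO cells are 2 single-cell clones (KO11 and KO28) that received Cas9 with a guide to TRPM2, a calcium-permeable ion channel, and Scr cells are 2 single-cell clones (Scr13 and Scr16) that received Cas9 with a scrambled guide. Both kinds of clone were given the same donor vector, carry GFP and puromycin markers and were kept under puromycin selection. Each clone was sampled in 2 replicates in regular medium (untreated) and in 2 after 24 h with doxorubicin, a drug that poisons topoisomerase II and damages DNA. For the RNA-seq cells, a serum withdrawal before treatment, as the study used in other assays, is not given in the sources used here. The sample labels give the dose as 0.3 µM, and the design text of the series gives 3 µM. Each genotype rests on 2 clones, so differences between clones and effects of the edit cannot be told apart, and the p-values measure the spread between these libraries, part of which may be technical.

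Most mRNAs of these genes are the only messenger RNAs of animal cells without a poly(A) tail. Their 3′ end is a short stem-loop that is bound by the protein SLBP and cut a few bases downstream with help of the U7 small nuclear ribonucleoprotein, and the mRNA accumulates in S phase and is destroyed when DNA synthesis stops. A small share of transcripts read past the stem-loop and are polyadenylated at a later signal, and such forms are known from differentiated cells and from cells with low SLBP. The libraries were made from RNA retained on oligo(dT) beads, so the levels below are those of polyadenylated histone transcripts plus whatever tail-less RNA was carried over, and they are not the total histone mRNA. In bulk RNA, fewer cells in S phase and less RNA per cell cannot be told apart.

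The stem-loops are shown because they decide which form of the mRNA a poly(A) library can hold. A search of the GENCODE 29 gene models for a stem of 6 paired bases that begins with GG and ends with T, around a loop of 4 bases that begins with T, within 100 bases after the stop codon, found one in 29 of the 31 histone genes whose model runs at least 60 bases past the stop codon. Among 18677 other protein-coding genes 7 held such a sequence (0.0375%), and the replacement variant H2AX was among them. The models of the other 33 histone genes run less far past the stop codon, and of these only H4C11 also held a stem-loop. H2AC11 and H2BC11 held no match in the window. The stem-loops took 5 different sequences. Those of 6 genes are printed as RNA-sense DNA, 5′ to 3′, with the stem-loop in capitals.
H2AC6, chr6:26124664-26124689, plus strand: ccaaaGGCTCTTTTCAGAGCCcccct
H2AC8, chr6:26217412-26217437, plus strand: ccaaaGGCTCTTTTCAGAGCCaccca
H2AC25, chr1:228457364-228457389, minus strand: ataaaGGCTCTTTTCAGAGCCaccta
H2BC5, chr6:26158582-26158607, plus strand: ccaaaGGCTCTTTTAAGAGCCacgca
H2BC21, chr1:149886183-149886208, minus strand: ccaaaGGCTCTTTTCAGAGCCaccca
H4C5, chr6:26204996-26205021, plus strand: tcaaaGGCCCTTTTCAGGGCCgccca
The stem of H4C5 differs from the others in its paired bases, and that of H2BC5 differs in its loop. In the gene model, H2AC6 goes on for 1114 bases after the stem-loop, H4C5 for 1022 and H2BC21 for 1729, whereas H2AC8 goes on for 51. Of the 64 models, 22 run at least 100 bases past the stem-loop and 28 end at the stop codon, so on such models reads from a longer, polyadenylated form of those 28 genes would be counted only over the coding part. The annotation release the authors counted on is not given in the sources used here, and the levels per kb below rest on the GENCODE 29 models too.

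Promoters were read from RefSeq (GRCh38.p14, 300 bases per gene), where 59 of the 64 genes matched. The CCAAT box, searched as CCAAT on both strands, stood in 84.7% of them and in 34.6% of 35116 promoters of the table. TATAAA stood in 62.7% against 11.5%, and the octamer ATTTGCAT, the element known from H2B promoters and read by POU2F1 (OCT1), in 39.0% against 1.77%. The octamer was found in 76.5% of H2B and 64.3% of H2A promoters, 9.09% of H3 promoters and in 0 of the 5 H1 and 12 H4 promoters. The windows of H2AC6, H2AC7, H2AC8, H2AC11, H2AC14 and H2AC20 overlap those of H2BC4, H2BC7, H2BC8, H2BC11, H2BC14 and H2BC21 on the other strand. Each pair, in this order, holds the same octamer, which was counted for both genes. The H3 share is 1 of 11, H3C4, whose RefSeq window has the same coordinates as that of H2AC7 (chr6:26199244-26199543). It so holds the octamer that H2AC7 shares with H2BC7. For 4 genes, H3C4, H2BC6, H2BC15 and H4C9, the RefSeq start lay more than 500 bases from the start of the gene model. CCAAT stood in all 5 H1, 14 H2A, 17 H2B and 11 H3 promoters and in 25.0% of the H4 promoters. The 250 bases before the start of H2BC14 are printed because they overlap the window before the start of H2AC14 on the other strand, and both genes were lower with doxorubicin in the libraries labelled TRPM2 KO. Those of H3C2 are printed because this gene differed between the genotypes. Capitals mark the CCAAT box, the TATAAA element and the octamer on either strand.
H2BC14, chr6:27814772-27815021, plus strand: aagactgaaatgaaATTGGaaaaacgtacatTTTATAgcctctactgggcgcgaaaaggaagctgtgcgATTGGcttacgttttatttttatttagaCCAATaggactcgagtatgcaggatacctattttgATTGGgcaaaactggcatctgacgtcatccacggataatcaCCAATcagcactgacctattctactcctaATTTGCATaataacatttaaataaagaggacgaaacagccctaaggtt
H3C2, chr6:26032100-26032349, minus strand: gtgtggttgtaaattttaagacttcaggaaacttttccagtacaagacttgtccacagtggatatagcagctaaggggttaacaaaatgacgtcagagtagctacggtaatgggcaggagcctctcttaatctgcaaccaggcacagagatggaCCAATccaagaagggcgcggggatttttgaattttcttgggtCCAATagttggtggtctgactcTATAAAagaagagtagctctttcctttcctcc
The H2BC14 window holds CCAAT 5 times, TATAAA once on the minus strand and the octamer once, and the H3C2 window holds CCAAT 2 times and TATAAA once.

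The edited gene was examined before the histone genes. TRPM2 (ENSG00000142185) had 0.118 and 0.115 normalized CPM (reads scaled to a common library size by the authors) in the untreated Scr13 libraries and was at 0 in both untreated Scr16 libraries, against 1.93 and 2.23 in KO11 and 1.41 and 2.19 in KO28. With doxorubicin it had 0.0594 and 0.0631 in Scr13, 1.33 and 0.39 in Scr16, 1.22 and 1.83 in KO11 and 1.37 and 0.658 in KO28. TRPM2 reads were thus higher, not lower, in the untreated libraries labelled TRPM2 KO (log2 fold change 1.47 ± 0.27 SE, limma, Benjamini-Hochberg adjusted p = 0.0015). Reads from exons outside the edited start of the gene do not check the edit, and the groups are named by their labels from here on. The study states that its KO and scrambled cells were authenticated by RT-PCR and Western blotting. Of 12 noradrenergic neuroblastoma markers, all had a row and their summed level lay between 7613 and 9055 normalized CPM per library. STMN2 was the most abundant, with TH at a mean of 0.328 and CHGA at 2.98. Of 11 tested, 2 were called higher and 1 lower in untreated TRPM2 KO (27.3%, against 4.84% of all genes). After doxorubicin 1 was called higher and 1 lower (18.2%, against 8.69% of all genes), both by limma at a Benjamini-Hochberg adjusted p below 0.05. Of 12 markers of the mesenchymal state, 11 had a row, with VIM the most abundant and WWTR1 the least, and their sums averaged 561 ± 145 (SD, n = 4) in Scr and 836 ± 96.5 in TRPM2 KO untreated, and 552 ± 96.2 and 884 ± 119 with doxorubicin. The median log2 fold change of the mesenchymal markers between the genotypes was 1.25 untreated and 1.76 after doxorubicin. Untreated, 6 of 10 tested were called higher in TRPM2 KO and 1 lower (limma, Benjamini-Hochberg adjusted p below 0.05). That is 70.0%, against 4.84% of all genes. After doxorubicin, 7 of 9 were called higher and 1 lower (88.9%, against 8.69% of all genes). The part of these markers in the histone results was not tested.

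Histone transcripts were a small fraction of these libraries. Over 16 libraries with 10481177 to 25086085 reads on genes (median 16037366.5), the 64 genes together drew 74885 reads. The mean level of a histone gene had a median of 3.94 normalized CPM, with 6 genes above 10 and 10 below 1, and 51 genes had reads in every library. A floor of 3 reads corresponds to 0.118 to 0.285 normalized CPM, and floors and intervals cover counting error only. The tests of histone genes were less precise than those over all genes. The median SE of a histone gene's log2 fold change was 0.27 in the untreated comparison of genotypes and 0.28 in the doxorubicin comparison. Over all genes tested it was 0.13 and 0.14, and the part of low levels in this was not tested.

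Levels between genes are given per kb of gene model, as the mean over the 16 libraries in normalized CPM per kb. Among the H1 linker histones, which bind the DNA between nucleosomes, H1-2 reached 21.2, H1-5 13.7, H1-4 12.4 and H1-3 8.21, and the testis form H1-6 stood at 0.0854. Among the H3 genes, which encode the core histone with the most modified tail, H3C2 had the highest mean over all libraries of the 64 genes at 31.0, although the mean of H2BC12 per kb was higher in both TRPM2 KO groups. Among the H3 genes it was followed by H3C3 at 19.7, H3C11 at 16.6, H3C7 at 10.9, H3C4 at 7.52 and H3C1 at 7.32. H3C12 (3.13), H3C13 (2.93), H3C10 (2.21), H3C6 (1.63) and H3C8 (1.59) were lower. The H4 genes all encode the same protein, and H4C4 (16.7), H4C13 (15), H4C3 (14.5) and H4C2 (9.21) stood above H4C5 (5.93), H4C1 (4.41), H4C9 (2.60), H4C8 (1.93) and H4C16 (0.483).

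For H2A and H2B, which pair into the dimers that flank the H3 and H4 core, levels per kb spread over a similar range. H2AC8 had 16.4, H2AC25 15.2, H2AC14 10.6, H2AC7 10.3, H2AC20 10.3, H2AC13 8.42, H2AC16 8.05 and H2AC21 6.08 normalized CPM per kb. H2AC12 (3.86), H2AC6 (3.84), H2AC11 (3.43), H2AC4 (3.05) and H2AC15 (2.77) followed. The H2B genes were led by H2BC12 at 26.9, H2BC5 at 17.7 and H2BC14 at 13.3, with H2BC17 (8.10), H2BC10 (7.88), H2BC4 (7.78), H2BC13 (5.79), H2BC21 (4.65), H2BC3 (4.11), H2BC11 (3.44), H2BC9 (3.34) and H2BC7 (3.19) between. The lowest were H2BC8 (2.68), H2BC18 (2.59), H2BC6 (1.93), H2BC26 (1.63) and H2BC15 (0.645). Genes with long models, such as H2BC21 and H4C5, are diluted in a level per kb where few reads fall in the added length, and genes of the same family are near-identical over the coding part, so the division of reads between them is uncertain. The setting for strand and for reads that fit several genes is not given in the sources used here.

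**Figure D1:**
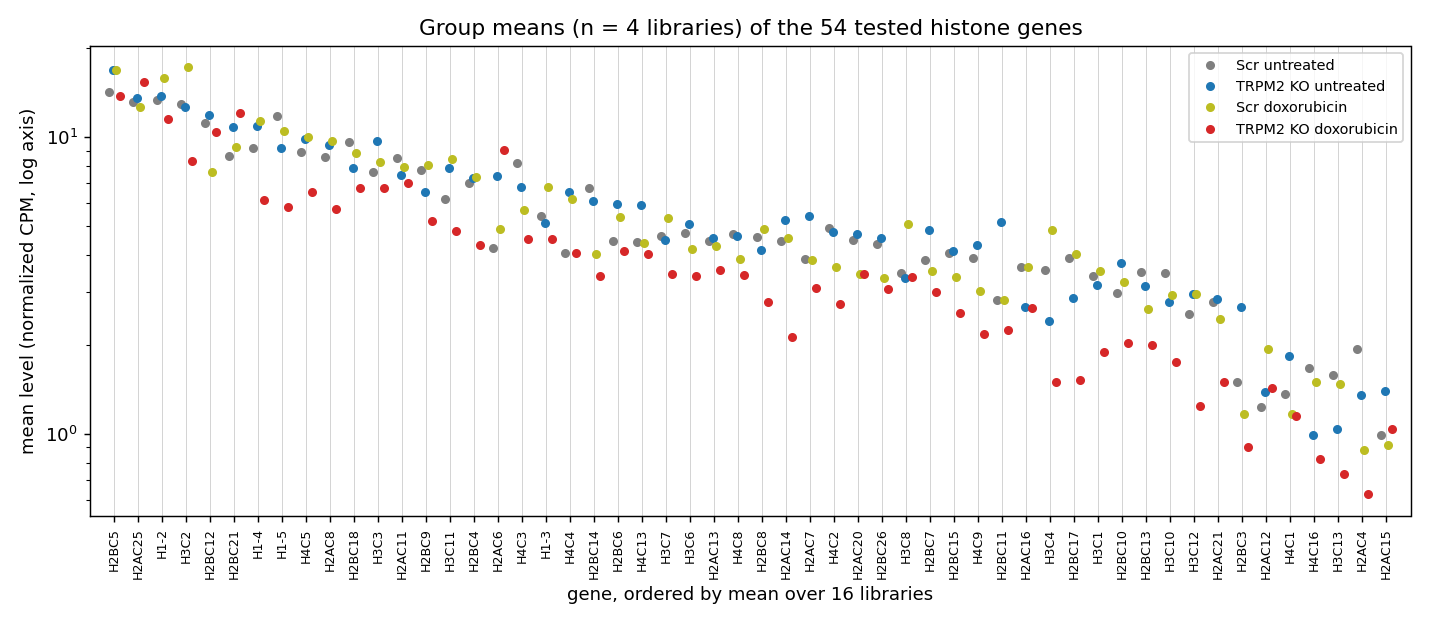
Mean level in normalized CPM (y axis, log scale, not divided by length) of the 54 histone genes that were tested in at least 1 comparison of 2 groups, ordered by their mean over 16 libraries (x axis), with 1 point per group of 4 libraries. The points of the TRPM2 KO doxorubicin group lie lowest for most genes, and H2AC6, H2AC25 and H2BC21 are among those where this group is the highest.

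The summed level of the 64 genes averaged between 301 and 318 normalized CPM in 3 groups and 233 in doxorubicin-treated TRPM2 KO cells. Untreated Scr libraries summed to 277 and 239 normalized CPM in Scr13 and 333 and 356 in Scr16, with a mean of 301 ± 53.2 (SD, n = 4). Untreated TRPM2 KO libraries summed to 212 and 300 in KO11 and 322 and 436 in KO28, with a mean of 318 ± 92.2. KO28 stood above KO11 and Scr16 above Scr13 in every untreated replicate, so the means of the genotypes lay within the spread of their clones.

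With doxorubicin the sums were 199 and 339 in Scr13, 365 and 326 in Scr16, 212 and 217 in KO11 and 252 and 251 in KO28, which gave 307 ± 74.1 in Scr and 233 ± 21.6 in TRPM2 KO (SD, n = 4). Replicate 1 of Scr13 lay below all 4 TRPM2 KO libraries and the other 3 Scr libraries lay above them. Without the most abundant gene, H2BC5, the 2 means were 291 ± 69.3 and 219 ± 23.2. RNAs that are made without a poly(A) tail, of which 12 of 24 listed had a row, summed to between 6.39 and 15.4 normalized CPM per library. SNORA73B was the most abundant of them and VTRNA1-3 was at 0 in all libraries. Their sum was 11.8 in replicate 1 of doxorubicin-treated Scr13 and highest in replicate 2 of untreated KO28, the library with the highest histone sum. Group means were 9.14 ± 2.98 in Scr and 11.9 ± 3.74 in TRPM2 KO untreated, and 9.89 ± 1.55 and 10.8 ± 2.69 with doxorubicin. The part of tail-less RNA in the histone levels was not tested.

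**Figure D2:**
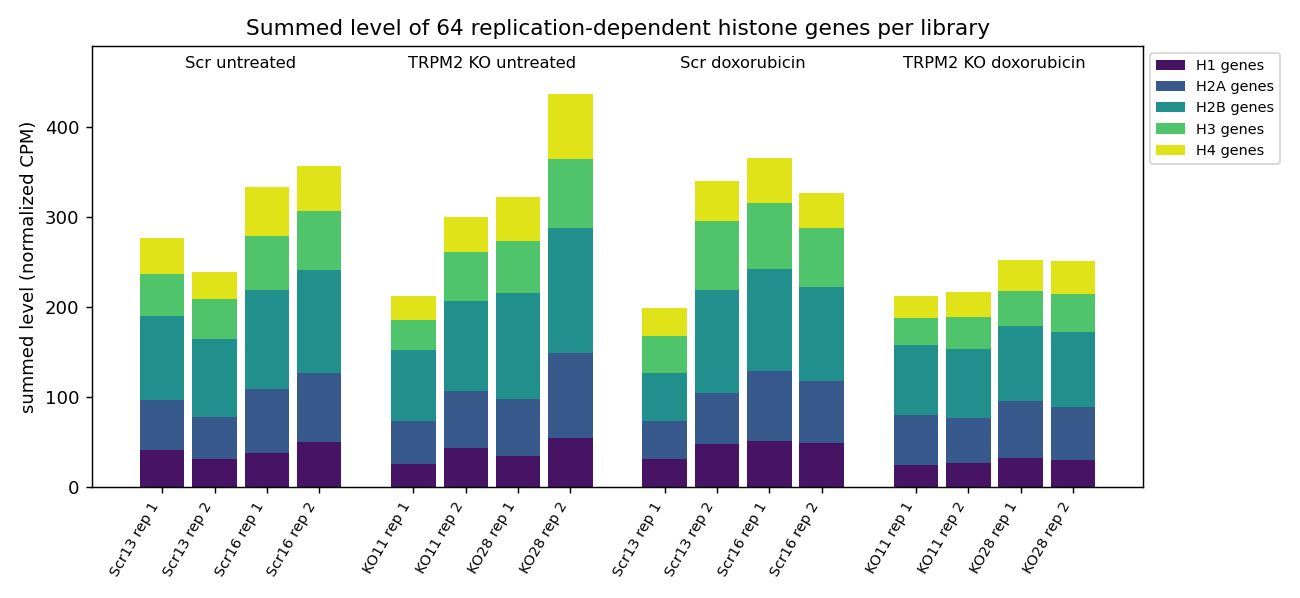
Summed level of the 64 histone genes in normalized CPM (y axis, linear from 0) in each of the 16 libraries (x axis, by clone and replicate within a group), stacked by family. Sums in the TRPM2 KO doxorubicin group lie between 212 and 252, and the Scr doxorubicin group spans 199 to 365 because of replicate 1 of Scr13.

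The first comparison asked whether untreated TRPM2 KO cells differ from Scr cells. No histone gene passed the threshold: 0 of 54 tested were called, against 4.84% of all 14364 genes tested (limma, Benjamini-Hochberg adjusted p below 0.05), of which 2.3% were higher and 2.54% lower. edgeR's quasi-likelihood test and DESeq2 also called 0 histone genes, where they called 4.43% and 6% of all genes. At an unadjusted p under 0.05 there were 2 (3.7%, against 14.3% of all genes), H2AC6 and H2BC11. The median log2 fold change of the 54 genes was -0.01, the same as that of all genes, with 25 above 0 and 29 below. Family medians lay between -0.09 for H3 and 0.00 for H2B and H4. The range ran from -0.47 for H3C4 to 0.72 for H2AC6.

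H2AC6 (ENSG00000180573, chr6:26124145-26139116), an H2A gene whose models include spliced forms with a long 3′ part, came closest to the threshold. It had 5.04 and 3.68 normalized CPM in untreated Scr13, 2.52 and 5.68 in Scr16, 6.17 and 8.25 in KO11 and 6.57 and 8.68 in KO28. The groups did not overlap, as was the case with KO higher for 4.29% of all genes, and the log2 fold change was 0.72 ± 0.23 SE (limma, Benjamini-Hochberg adjusted p = 0.085, two-sided exact permutation p = 0.0286, the smallest that 4 against 4 libraries allow). H2BC11 had 2.82 ± 0.658 normalized CPM in Scr and 5.17 ± 1.94 in TRPM2 KO (SD, n = 4), with KO28 at 7.11 and 6.42 and KO11 at 2.92 and 4.22. Its log2 fold change of 0.65 ± 0.26 SE did not pass the threshold with all libraries (limma, Benjamini-Hochberg adjusted p = 0.21).

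In doxorubicin-treated cells, H3C2, H3C4 and the linker histone gene H1-5 were lower and H2AC6 was higher in the libraries labelled TRPM2 KO. Untreated TRPM2 reads were higher in these clones than in Scr, and such reads do not check the edit. The called genes are 4 of 53 histone genes tested (7.55%), near the 8.69% of all 14572 genes that were called either way. The lower calls, 3 of 53, stand beside 4.17% of all genes called lower, and the higher call stands beside 4.52%. edgeR's quasi-likelihood test called 1 higher and 2 lower (8.19% of all genes either way), and DESeq2 called 1 higher and 4 lower (10%). Direction was shared more widely than calls: 47 of 53 log2 fold changes were below 0 (88.7%, against 47.4% of all genes), and the median was -0.28 against 0.01. At an unadjusted p under 0.05 there were 13 (24.5%), near the 20.3% of all genes. Without replicate 1 of Scr13, the library with the lowest histone sum, 9 of 50 genes were called lower and 0 higher, and the median was -0.48. In that setting 1197 of all 14385 genes were called either way. Without clone KO11, 1 of 50 was called lower, against 510 of all 14058 genes called either way. The median was then -0.15, and 36 of the 50 genes had the same direction as with all libraries.

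H3C2 (ENSG00000274267, chr6:26031650-26032060), the H3 gene with the highest level per kb, had 11.8 and 20.9 normalized CPM in doxorubicin-treated Scr13, 15.2 and 20.7 in Scr16, 5.76 and 10.0 in KO11 and 7.78 and 9.69 in KO28. All 4 TRPM2 KO libraries lay below all 4 Scr libraries, as was the case for 6.42% of all genes. The means were 17.2 ± 4.47 and 8.31 ± 1.96 (SD, n = 4), with a log2 fold change of -0.95 ± 0.21 SE (limma, Benjamini-Hochberg adjusted p = 0.0043, exact permutation p = 0.0286). Untreated, H3C2 had 11.6, 12.1, 15.5 and 12.4 in the Scr libraries and 7, 12.3, 13.3 and 17.7 in the TRPM2 KO libraries, which overlap. The call after doxorubicin held in 18 of 20 alternatives and was lost without clone KO11 (limma, Benjamini-Hochberg adjusted p = 0.063) and with no filter (0.051).

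H3C4 (ENSG00000197409, chr6:26196840-26197250), another H3 gene of the main cluster, had 3.33 and 5.68 normalized CPM in doxorubicin-treated Scr13, 6.94 and 3.57 in Scr16, 2.43 and 1.01 in KO11 and 2.09 and 0.419 in KO28. These groups did not overlap either. Its log2 fold change was -1.28 ± 0.31 SE (limma, Benjamini-Hochberg adjusted p = 0.0097, exact permutation p = 0.0286), from means of 4.88 ± 1.73 and 1.49 ± 0.936 (SD, n = 4). Untreated means were 3.58 ± 0.777 in Scr and 2.41 ± 1.15 in TRPM2 KO, with a log2 fold change of -0.47 that did not pass the threshold (limma, Benjamini-Hochberg adjusted p = 0.45). The call after doxorubicin held in 18 of 20 alternatives and was lost without clone KO28 (limma, Benjamini-Hochberg adjusted p = 0.11) and with no filter (0.098).

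H1-5 (ENSG00000184357, chr6:27866849-27867529), a linker histone gene of the distal cluster, had 7.66 and 11 normalized CPM in doxorubicin-treated Scr13, 11.2 and 12.3 in Scr16, 3.39 and 4.79 in KO11 and 7.72 and 7.35 in KO28. The highest TRPM2 KO library passed the lowest Scr library by little. Its log2 fold change was -0.80 ± 0.24 SE (limma, Benjamini-Hochberg adjusted p = 0.037, exact permutation p = 0.0571), and the call was lost under 10 of 20 alternatives, with adjusted p up to 0.56 over them. Reads summed per clone were among the settings that lost it. The log2 fold change lay between -1.18 and -0.42 over all 20.

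H2AC6 went the other way. With doxorubicin it had 4.28 and 5.99 normalized CPM in Scr13, 5.23 and 4.09 in Scr16, 11.8 and 9.32 in KO11 and 9.42 and 5.74 in KO28, where only the last overlapped the Scr range. The log2 fold change of 0.75 ± 0.23 SE was close to the untreated one (limma, Benjamini-Hochberg adjusted p = 0.045, exact permutation p = 0.0571). The call was lost under 12 of 20 alternatives, with adjusted p up to 0.53, and the log2 fold change lay between 0.52 and 0.97 over all 20.

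**Figure D3:**
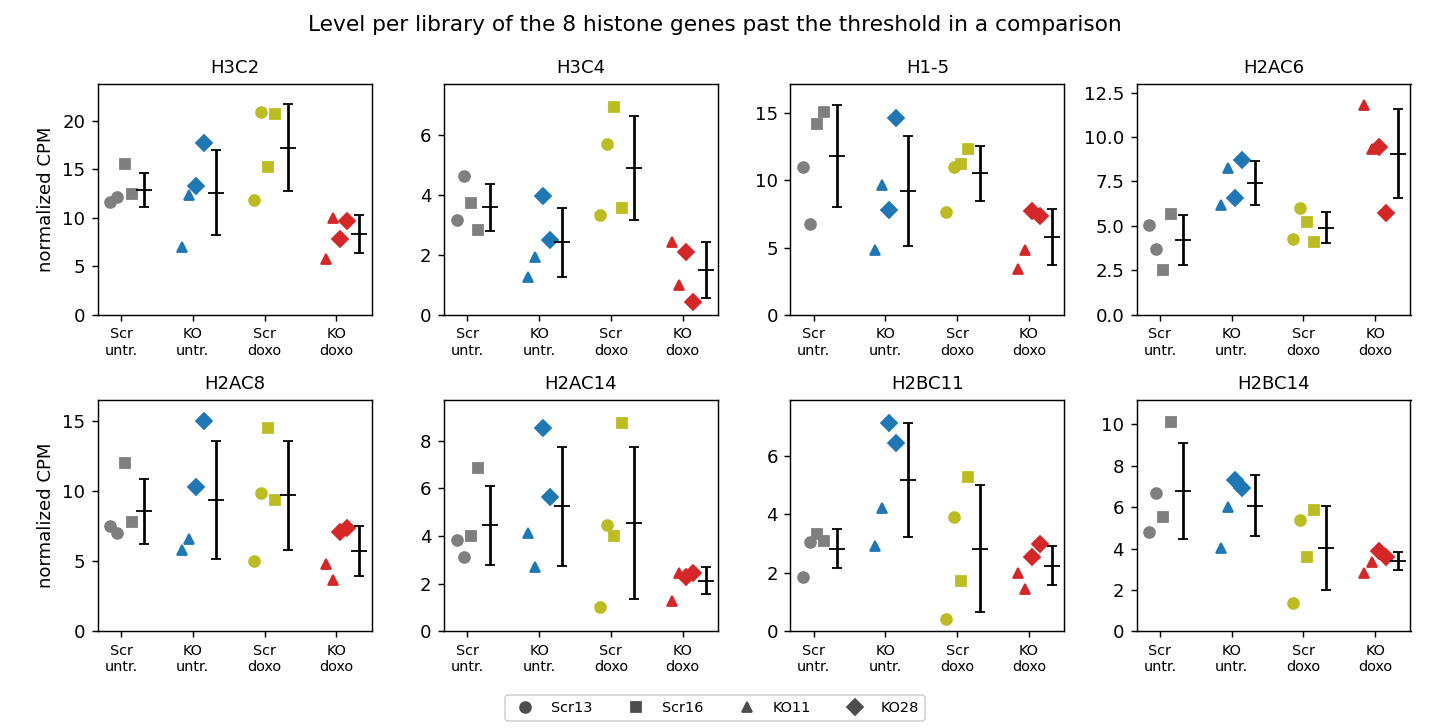
Level in normalized CPM (y axes, linear from 0) of the 8 histone genes past the threshold in a comparison, in each library of the 4 groups (x axes), with marker shape for the clone and black bars for the mean ± SD of 4 libraries. H3C2 and H3C4 are lower in all 4 TRPM2 KO than in all 4 Scr libraries after doxorubicin, and H2AC6 lies above all Scr libraries of the same treatment in 4 of 4 untreated and 3 of 4 doxorubicin-treated TRPM2 KO libraries.

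Among genes that were not called after doxorubicin, H1-2 and H2BC8 also had groups that did not overlap, with TRPM2 KO lower. With H3C2 and H3C4 these are 4 of 53, near the 6.42% of all genes. H1-2 had 14.1, 19.1, 14.1 and 16.0 normalized CPM in the Scr libraries and 11.1, 12.5, 11.8 and 10.6 in the TRPM2 KO libraries, a log2 fold change of -0.42 (limma, Benjamini-Hochberg adjusted p = 0.13). H2BC8 had 4.92 ± 1.61 and 2.78 ± 0.387 (SD, n = 4), a log2 fold change of -0.62 (limma, Benjamini-Hochberg adjusted p = 0.15). By family, all 4 H1 genes and all 11 H3 genes tested had values below 0, with medians of -0.57 and -0.58. The medians were -0.27 for 9 H4, -0.21 for 17 H2B and -0.12 for 12 H2A genes. The 6 genes at or above 0 were H2AC6, H2BC12 (0.52), H2BC21 (0.40), H2AC25 (0.29), H2AC15 (0.14) and H4C1 (0.01). The remaining values ran from -0.01 for H2AC20 to -0.79 for H2BC17.

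H4C6 (ENSG00000274618, chr6:26240426-26240737), an H4 gene of the main cluster, was under the filter of 1 normalized CPM in 4 libraries and was not part of the counts above. It had reads in all 8 Scr libraries and 0 reads in all 8 libraries labelled TRPM2 KO. Untreated, its levels were 0.315 and 0.345 normalized CPM in Scr13 and 0.859 and 0.284 in Scr16, from 33 reads in all, and with doxorubicin 0.891 and 0.568 in Scr13 and 1.90 and 0.195 in Scr16, from 47 reads. Against a floor of 3 reads over the 4 TRPM2 KO libraries of a treatment, the level in TRPM2 KO was at least 9.16-fold lower untreated and at least 17.2-fold lower with doxorubicin. With no filter on low values, edgeR's quasi-likelihood test called H4C6 lower in both treatments (Benjamini-Hochberg adjusted p = 0.046 and 0.0025), and limma without the filter called it in neither. The edgeR test without a filter was added after these values were seen. Of all 26410 genes, 3 had reads in every Scr library and in no TRPM2 KO library, and 3 showed the opposite.

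The other 9 genes that were never tested had means of at most 0.374 normalized CPM, the level of H4C12. H4C12 averaged 0.592 and 0.244 in untreated Scr and TRPM2 KO and 0.228 and 0.432 with doxorubicin, and H4C15 0.128, 0.370, 0.1 and 0.349 in the same order. The remaining 7 (H1-6, H2AC18, H2AC19, H3C14, H3C15, H4C11 and H4C14) lay between 0.0282 and 0.149. H2AC18 with H2AC19, H3C14 with H3C15 and H4C14 with H4C15 are known as duplicated copies at 1q21 that share their coding sequence, so low counts there need not be low expression.

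The next comparison asked what 24 h of doxorubicin did in Scr cells, with the clone as a term in the fit. No histone gene passed the threshold: 0 of 54 were called, against 12.3% of all 14378 genes tested, of which 7.1% were higher and 5.24% lower. edgeR's quasi-likelihood test and DESeq2 called 0 as well, where they called 11.5% and 14.7% of all genes. Unadjusted p was under 0.05 for 2 (3.7%, against 25.8% of all genes), H2BC12 with a log2 fold change of -0.60 and H2BC14 with -0.69 (limma, Benjamini-Hochberg adjusted p = 0.16 and 0.14). The median was -0.07 against -0.01 for all genes, with 23 values above 0 and 31 below. Without replicate 1 of doxorubicin-treated Scr13 the median was 0.11. H3 genes had a median of 0.10 and H1 genes of 0.21, and the values ran from -0.69 for H2BC14 to 0.44 for H3C8.

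In the libraries labelled TRPM2 KO, doxorubicin lowered H2AC14, H2BC11, H2BC14 and H2AC8. These 4 of 52 genes tested (7.69%) stand beside 19.6% of all 14513 genes called either way and 8.35% called lower, and 0 histone genes were called higher, against 11.3% of all genes. edgeR's quasi-likelihood test called 5 lower (18.6% of all genes either way) and DESeq2 called 7 (20.7%). A further 12 had an unadjusted p under 0.05, all of them lower, which makes 16 with the called genes (30.8%, against 31.5% of all genes). Of the 52 values, 46 were below 0 (88.5%, against 47.6% of all genes), with a median of -0.43 against 0.02. The number called lower ranged from 2 to 9 when single libraries were left out. It was 9 of 51 without replicate 1 of untreated KO28, where 2519 of all 14352 genes were called either way. It was 2 of 51 without replicate 2 of untreated KO28 (2903 of 14351 genes). Without replicate 1 of untreated KO11 it was 8 of 52 (2141 of 14360 genes). Without replicate 1 or replicate 2 of doxorubicin-treated KO28 it was 2 (2485 of 14273 and 2375 of 14310 genes).

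H2AC14 (ENSG00000276368, chr6:27814354-27814740) had 4.13 and 2.71 normalized CPM in untreated KO11 and 8.52 and 5.62 in untreated KO28, against 1.28 and 2.46 in KO11 and 2.29 and 2.45 in KO28 with doxorubicin. No treated library reached the lowest untreated one, which was the case for 8.79% of all genes. The log2 fold change was -0.94 ± 0.26 SE (limma, Benjamini-Hochberg adjusted p = 0.0099). Its divergent partner H2BC14 (ENSG00000273703, chr6:27815044-27815424) starts 303 bases away in the gene models. It had 4.02, 6.02, 7.31 and 6.93 untreated and 2.82, 3.34, 3.86 and 3.59 with doxorubicin, again without overlap, and a log2 fold change of -0.66 ± 0.22 SE (limma, Benjamini-Hochberg adjusted p = 0.035). In Scr cells the corresponding values were -0.13 for H2AC14 and -0.69 for H2BC14, and neither passed the threshold.

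H2BC11 (ENSG00000124635, chr6:27125897-27132750) had 2.92, 4.22, 7.11 and 6.42 normalized CPM in untreated KO libraries and 1.98, 1.45, 2.55 and 2.99 with doxorubicin, so that 1 treated library overlapped the untreated range. Its log2 fold change was -0.89 ± 0.24 SE (limma, Benjamini-Hochberg adjusted p = 0.0084). H2AC8 (ENSG00000277075, chr6:26216975-26217483), an H2A gene of the main cluster, had 5.79 and 6.57 in untreated KO11, 10.3 and 15 in untreated KO28, and 4.8, 3.65, 7.06 and 7.35 in the same clones with doxorubicin. KO28 was higher than KO11 in each treatment, and with the clone in the fit the log2 fold change was -0.59 ± 0.20 SE (limma, Benjamini-Hochberg adjusted p = 0.041). The calls of H2AC14 and H2BC11 held in 15 of 16 alternatives, that of H2BC14 in 9 and that of H2AC8 in 8.

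All 4 H1 and all 8 H4 genes tested in this comparison had values below 0, with medians of -0.38 and -0.47. Medians were -0.46 for 10 H3, -0.42 for 17 H2B and -0.17 for 13 H2A genes. H2BC3 (-0.85), H3C12 (-0.72), H4C9 (-0.66), H2BC10 (-0.65), H1-4 (-0.63), H2AC21 (-0.60), H2BC4 (-0.59), H2AC4 (-0.59), H3C11 (-0.57), H3C1 (-0.57) and H1-5 (-0.55) had the largest values among genes that were not called. Values above 0 were those of H2AC6 (0.23), H2AC25 (0.21), H2BC21 (0.18), H2AC12 (0.15), H3C8 (0.06) and H2AC16 (0.03). The comparison of genotypes after doxorubicin and this comparison share the TRPM2 KO doxorubicin libraries, so their values for a gene are not independent of each other.

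**Figure D4:**
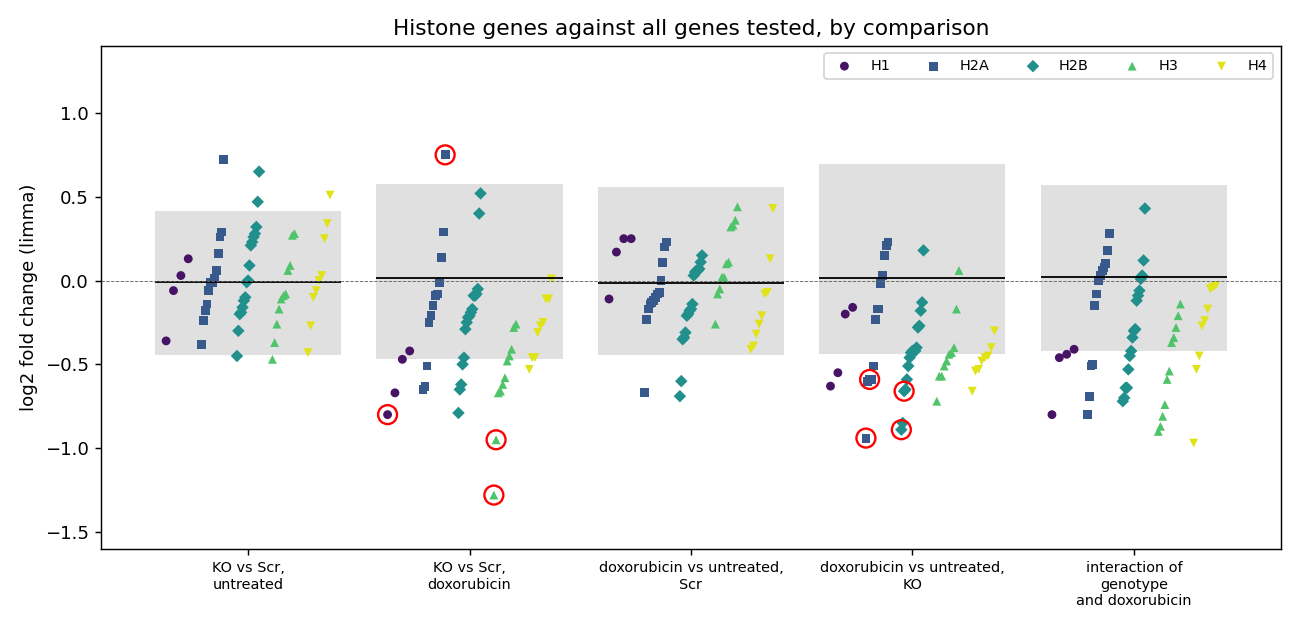
Log2 fold change (y axis) of each tested histone gene in the 5 comparisons (x axis), with marker shape and colour for the family, red rings for genes past the threshold, a black line at the median of all genes tested and a grey band for the middle 90% of them. Most histone genes lie below the median of all genes in the KO vs Scr comparison after doxorubicin and in the doxorubicin comparison of TRPM2 KO.

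Whether the doxorubicin response differed between the genotypes was tested as an interaction over all 16 libraries. No histone gene passed: 0 of 54 were called, against 0.0261% of all 15325 genes (4 genes). edgeR's quasi-likelihood test and DESeq2 called 0 histone genes, where they called 0.0653% and 0.378% of all genes. The interaction, the log2 response in TRPM2 KO minus that in Scr, had a median of -0.32 against 0.02 for all genes, with 44 values below 0 and 10 above. Unadjusted p was under 0.05 for 5 genes: H4C4 (-0.97), H3C11 (-0.90), H3C2 (-0.87), H1-4 (-0.80) and H2AC8 (-0.69), each lower in TRPM2 KO. These are 9.26% of the histone genes tested, near the 8.31% of all genes. For H3C2 this is a response of 0.36 in Scr and -0.51 in TRPM2 KO (interaction SE 0.29, limma, Benjamini-Hochberg adjusted p = 0.40). The median SE of the histone interactions was 0.39, against 0.20 over all genes, so a difference of the size of the median was not detectable for a single gene. H3 genes had the lowest family median at -0.54, and H2A genes the highest at 0.00.

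Histone genes often lie in divergent pairs, and 10 pairs started less than 500 bases apart. Partners could differ. H2BC4 and H2AC6, 218 bases apart, had log2 fold changes of -0.65 and 0.75 between the genotypes after doxorubicin, of which only that of H2AC6 passed the threshold. H2BC11 and H2AC11, 291 bases apart, had -0.89 and -0.02 with doxorubicin in TRPM2 KO. H2BC8 and H2AC8, 282 bases apart, had -0.62 and -0.63 between the genotypes after doxorubicin and neither was called. By gene model, the 25 tested genes whose model ends at the stop codon had a median of -0.45 in that comparison, and the 18 whose model runs at least 100 bases past the stem-loop and the 10 with other models each had -0.26. The difference between these classes was not tested.

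Genes of the S phase were compared because histone mRNA is made there. Of 42 DNA replication genes, doxorubicin lowered 27 and raised 1 in Scr, and lowered 31 and raised 0 in TRPM2 KO, with median log2 fold changes of -0.34 and -0.43. Of all genes, 5.24% were called lower and 7.1% higher in Scr, and 8.35% and 11.3% in TRPM2 KO. In Scr, the MCM helicase genes MCM6 (-0.71), MCM5 (-0.77) and MCM4 (-0.54) were among those with the smallest p, and CDT1, which loads the helicase, was the gene that rose (0.34). In TRPM2 KO these were MCM6 (-1.02), MCM5 (-0.93), the DNA methylation factor UHRF1 (-0.96) and MCM4 (-0.61). Between the genotypes, 1 gene was lower untreated, MCM2 (-0.75), which is 2.38% of the list and near the 2.54% of all genes, and 10 were lower after doxorubicin (23.8%, against 4.17% of all genes called lower), led by MCM2 (-0.93), MCM6 (-0.51), POLD1 (-0.47), a DNA polymerase subunit, and MCM3 (-0.38). Direction between the genotypes was shared more widely. Untreated, 39 of the 42 values were below 0 (92.9%, against 51.8% of all genes), with a median of -0.1. After doxorubicin, 36 were below 0 (85.7%, against 47.4% of all genes), with a median of -0.18. With doxorubicin, the histone genes had a median of -0.07 in Scr and of -0.43 in TRPM2 KO. Over the alternatives, none of which left out a clone here, these ranged from -0.19 to 0.11 and from -0.63 to -0.36.

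Genes of the histone mRNA machinery were compared next. SLBP, which binds the stem-loop, had 73.4 normalized CPM in untreated Scr, 64.9 in untreated TRPM2 KO, 62.2 in Scr with doxorubicin and 55.4 in TRPM2 KO with doxorubicin, and passed the threshold in no comparison (limma, Benjamini-Hochberg adjusted p between 0.088 and 0.99). NPAT, the activator of histone transcription, had 58.6, 48.7, 56.8 and 53.5 in the same order and also passed in none. Of 33 genes for histone mRNA processing and transcription, 0 were called between untreated genotypes, against 4.84% of all genes, and 3 were lower in TRPM2 KO after doxorubicin. They were the cyclin gene CCNA2 (-0.29), the transcription factor gene E2F2 (-0.41) and ERI1 (-0.40), which encodes a nuclease that trims and degrades histone mRNA. Doxorubicin lowered 4 in Scr, namely E2F1 (-0.52), CCNE2 (-0.82), COIL (-0.54), the scaffold of Cajal bodies, and E2F2 (-0.47). It lowered 6 in TRPM2 KO, among them E2F2 (-0.72), E2F1 (-0.61), UPF1 (-0.43), a helicase needed for histone mRNA decay, and CCNA2 (-0.34). No gene of this list was called higher in any of the 4 comparisons. The genes called lower were 9.09% of the list between the genotypes after doxorubicin, 12.1% with doxorubicin in Scr and 18.2% in TRPM2 KO, against 4.17%, 5.24% and 8.35% of all genes called lower.

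Histone chaperones carry new histones to the replication fork. Of 19 tested, MCM2 was lower in untreated TRPM2 KO, and MCM2, CHAF1A (-0.51), a subunit of the CAF-1 complex, and TONSL (-0.31) were lower after doxorubicin. These are 5.26% and 15.8% of the list, against 2.54% and 4.17% of all genes called lower. Doxorubicin lowered 5 in Scr, among them MCM2 (-0.47), RBBP4 (-0.33), NASP (-0.31) and SSRP1 (-0.24), and 7 in TRPM2 KO, among them MCM2 (-0.65), CHAF1A (-0.51), SSRP1 (-0.39) and RBBP4 (-0.29). These are 26.3% and 36.8% of the list, against 5.24% and 8.35% of all genes called lower. MCM2 is in both this list and that of DNA replication.

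Replacement variants are histones made outside S phase from ordinary polyadenylated mRNA, and 11 of 15 listed were tested. Doxorubicin raised 3 and lowered 3 in Scr, and raised 2 and lowered 6 in TRPM2 KO, which is 54.5% and 72.7% of those tested against 12.3% and 19.6% of all genes. H2AZ1, which marks promoters, fell by 0.40 in Scr and 0.54 in TRPM2 KO on the log2 scale, and in the same order H2AZ2 fell by 0.33 and 0.36. H3-3B, an H3.3 gene, rose by 0.20 and 0.24, and the other H3.3 gene, H3-3A, fell by 0.27 in Scr and had -0.23 in TRPM2 KO, which did not pass the threshold. H2AX, the variant phosphorylated at DNA breaks, whose mRNA is known in both forms, fell by 0.40 in TRPM2 KO (limma, Benjamini-Hochberg adjusted p = 0.0016). Its value in Scr was -0.07, which did not pass, and the difference between these responses, -0.33, did not pass either (limma, Benjamini-Hochberg adjusted p = 0.55). Between the genotypes, 0 variants were called untreated, against 4.84% of all genes. After doxorubicin the centromere variant CENPA (-0.77) and H1-10 (-0.44) were lower in TRPM2 KO, which is 18.2% of those tested against 8.69% of all genes. Of the RNAs made without a poly(A) tail, 2 to 4 were tested in these comparisons and 0 were called. The interaction called 0 genes in each of these lists.

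**Figure D5:**
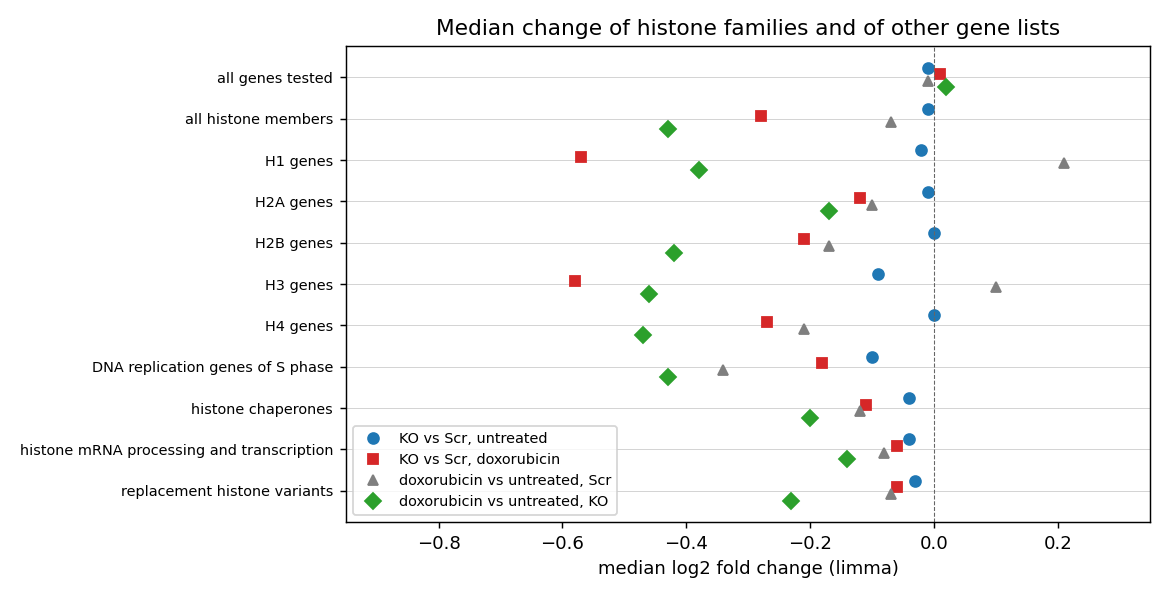
Median log2 fold change (x axis) of all genes tested, of the histone genes and their families, and of 4 other gene lists (y axis), with 1 marker per comparison. The histone median lies at -0.28 between the genotypes after doxorubicin and at -0.43 with doxorubicin in TRPM2 KO, and at -0.07 with doxorubicin in Scr, where the DNA replication genes lie at -0.34.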

How the data were processed

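Poly(A) RNA of 16 SH-SY5Y libraries was sequenced by the authors. The submitters' processing notes name bcl2fastq, HISAT2 2.1.0, HTSeq, edgeR and the build GRCh38. What the authors deposited is a normalized signal per gene and library, CPM scaled by library normalization factors and called normalized CPM here. Whole reads were recovered from 100% of the values within 0.01 reads. The deposited log2 fold changes, p-values and q-values of the authors' own comparison were not used.

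Log2(normalized CPM + 1) was fitted with limma 3.58.1 (R 4.3.3, empirical Bayes with an abundance trend) on the genes that reached 1 normalized CPM in 4 or more of the libraries compared, with Benjamini-Hochberg adjustment over all of them at a threshold of 0.05. Fold changes on this scale understate the change of low genes. Doxorubicin comparisons and the interaction had the clone as a term. Single genes were also compared with two-sided exact permutation tests. These shuffled libraries without regard to clone. Groups that do not overlap always reach the smallest p of this test, so there it adds nothing to the missing overlap. All tested histone genes are named, of the others the 3 most abundant and any called in an alternative. Of each list up to 4 genes with the smallest p are named per comparison, and SLBP, NPAT, H2AX, H2AZ1, H3-3A and H3-3B always, except that some genes of the lists are not reported here. The list medians are descriptions with no test. Pairing by replicate number was checked by correlation. Alternatives were edgeR 4.0.16 and DESeq2 1.42.0 on the recovered reads, no filter, a pseudocount of 0.25 and other scalings. A replicate block and each library left out were further ones. Reads summed per clone and each clone left out were run for the comparisons of genotypes only. Fits without the clone term were run for the doxorubicin comparisons and the interaction. The histone genes and all lists were chosen with earlier results of these data known.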

Additional observations from a re-analysis of the deposited data

Results flagged for a closer look

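Of 56 groups of 4 values examined (among them summed family levels and called histone genes in each group), 4 held a library far from the other 3, with a gap to the nearest above Dixon's critical value. Chance flags about 1 in 20 such groups. In doxorubicin-treated Scr cells, replicate 1 of Scr13 had a summed H1 level of 30.3 normalized CPM, against 47.8, 49.1 and 50.8 in the other libraries. The same library had a summed H2B level of 52.9, against 105, 113 and 115. H2AC8 stood at 12 in replicate 1 of untreated Scr16, against 7.02, 7.52 and 7.78. H2AC14 stood at 1.28 in replicate 1 of KO11 with doxorubicin, against 2.29, 2.45 and 2.46.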

How the results depend on the processing

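The 8 called histone genes kept their direction under all alternatives run in the comparison where each was called. The median of the histone genes stayed below 0 under all alternatives run for the genotypes after doxorubicin (-0.50 to -0.15). The same held for doxorubicin in TRPM2 KO (-0.63 to -0.36) and for the interaction (-0.53 to -0.18). The median ranged over 0 for untreated genotypes (-0.25 to 0.24) and for doxorubicin in Scr (-0.19 to 0.11). Clones were left out in the comparisons of genotypes only, so the other ranges do not cover the loss of a clone. For untreated genotypes, 1 gene was called lower by edgeR with no filter (H4C6), where 962 of all 25505 genes were called either way. Without clone KO11, 1 was called higher (H2BC11), against 796 of 13963 genes called either way. For the genotypes after doxorubicin, genes called lower numbered 5 by edgeR with no filter (1513 of all 25326 genes called either way). They numbered 0 with no filter in limma (850 of 25326 genes) and 2 with reads summed per clone (1047 of 14572). They numbered 1 of 50 without clone KO11 (510 of 14058), 7 of 49 without clone Scr13 (1202 of 14160), and 2 to 9 with single libraries left out. The 1 gene called higher, H2AC6, became 0 with no filter in limma, with a pseudocount of 0.25, with reads summed per clone and without each of the 4 clones, and it was 0 to 1 with single libraries left out. For doxorubicin in TRPM2 KO, genes called lower numbered 7 by DESeq2 (3005 of all 14513 genes called either way). They numbered 0 with no filter in limma (1913 of 25358 genes), and 2 to 9 with single libraries left out. The cause of these changes was not tested. Same-numbered replicates correlated between -0.10 and 0.12. Only KO11 with KO28 under doxorubicin exceeded 0.1, so the numbers were not taken to pair the samples. In all 4 clones with doxorubicin the summed DNA replication genes were nonetheless lower in replicate 1 than in replicate 2 (4288 and 5060 normalized CPM in Scr13). With a replicate block, the genotypes after doxorubicin gave 1 histone gene higher and 3 lower (1365 of all 14572 genes called either way). Doxorubicin gave 6 lower in TRPM2 KO (2905 of 14513 genes) and 0 in Scr, and the interaction gave 0 histone genes. All genes called rose from 1774 to 2129 with doxorubicin in Scr and from 4 to 22 in the interaction. The wide SE of the fold changes limits what can be seen of single histone genes, and its cause was not tested.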
